A study of Mus musculus with 66 samples.

Results

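Hnf4g, Hnf4a, Cdx1, Cdx2, Gata4, Gata6, Foxa2 and Klf5 encode transcription factors that pattern the intestinal epithelium. Their values were taken by gene symbol. All 8 were found among the 8978 gene symbols of the RNA table, each as 1 of its 9481 transcripts. The chromatin table holds 94469 regions, of which 233 lie closest to a start site of one of the 8 genes.

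The samples are mouse small intestinal organoids carrying the Lgr5 GFPDTR/+ allele, grown under 3 culture conditions. ENR medium holds epidermal growth factor, Noggin and R-Spondin-1 at 5%. CV is ENR with CHIR99021 at 3 µM, an inhibitor of GSK3, and valproic acid at 1 mM, a histone deacetylase inhibitor, which enriches for stem cells. EN is ENR from which R-Spondin-1 was left out, which depletes them. RNA-seq and ATAC-seq, a measure of open chromatin, had 4 libraries per culture. ChIPmentation of the histone marks H3K27ac, H3K4me3 and H3K27me3 was read in 3 libraries per culture. Hnf4g ChIPmentation had 1 library per culture.

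HNF4A and HNF4G are nuclear receptors that bind the same DNA motif and drive lipid handling and brush border genes in enterocytes. CDX1 and CDX2 are caudal homeobox proteins that set intestinal identity, and GATA4 and GATA6 are zinc finger proteins, GATA4 being known for the jejunal programme. FOXA2 is a forkhead pioneer factor of endodermal tissues, and KLF5 is a zinc finger protein best known from proliferating crypt cells.

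RNA libraries held 5630951 to 8859744 counts, so that 3 counts correspond to 0.361 to 0.642 CPM (counts per 1000000 counts of the library, after TMM scaling). Chromatin values are normalized read counts, rounded by the authors. Their sums per library ranged from 1752385 to 2109261 for ATAC and were highest in EN. Of 7 epithelial markers, all were detected, and Epcam read 1739 ± 29.2 CPM in CV, 1564 ± 17.7 in ENR and 1354 ± 57.5 in EN (SD, n = 4). Of 8 markers of stroma, endothelium and blood, 5 were tested and 2 were higher in EN than in CV, and their summed level was 3.58 to 5.39 CPM in CV, 8.31 to 9.98 in ENR and 23.7 to 29.5 in EN. Most of it was Vim, at 2.96, 7.96 and 23.3 CPM, and Ptprc, the leukocyte antigen CD45, read 0.0331, 1.16 and 2.64 CPM, while Cd3e, a T cell marker, was listed at 0 in all 12 libraries. Nothing in the sources says that libraries of a culture came from separate cultures, so p-values measure the spread between these libraries, which may be technical.

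The makeup of the cultures moved with the medium. The summed level of 7 stem cell markers was 612 to 665 CPM in CV, 1742 to 1888 in ENR and 38.8 to 45.3 in EN. The gap between CV and ENR was Olfm4, at 10.9 and 1229 CPM, and without it the other 6 summed to 605 to 645, 593 to 624 and 38.3 to 44.6 CPM. Of the 7, 4 were called lower in CV than in ENR by edgeR and 2 higher. Lower were Olfm4, Lgr5 (90.1 against 129 CPM), Smoc2 (304 against 350) and Axin2 (69.3 against 80.7). Higher in CV were Cd44 and Tnfrsf19 (147 and 11.8 CPM against 36.1 and 0.398 in ENR), and Tnfrsf19 was at 0 in EN. For 8 enterocyte markers the sums were 6509 to 6884, 7990 to 9004 and 49164 to 51176 CPM. Goblet cell markers, 6 in number, rose from 862 to 955 CPM in CV to 10263 to 11515 in EN. Paneth cell markers summed to 3512 to 3949, 5999 to 6282 and 2026 to 2295 CPM, enteroendocrine markers to 24.3 to 36.9, 530 to 551 and 1448 to 1915, and tuft cell markers to 1.35 to 3.37, 30.7 to 31.9 and 68.5 to 92.7. Their part in the results that follow was not tested. In bulk samples, fewer cells of a type and less RNA per cell cannot be told apart.

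The first comparison asked how the RNA of the 8 factors differed between EN and CV. Hnf4g rose 11.5-fold, while its paralogue Hnf4a read 693 to 740 CPM in every library. Gata6, Klf5, Gata4 and Cdx1 rose by smaller amounts, Foxa2 fell 2.60-fold, and Cdx2 fell by 0.13 on the log2 scale. By edgeR's quasi-likelihood test with Benjamini-Hochberg adjustment, 7 of 8 members had an adjusted p under 0.01. Of all 9288 transcripts tested, 76.4% were called, so a call alone is common. The 5 that rose and the 2 that fell stand beside 35.2% and 41.2%, and 76.5% of all transcripts had no overlap in CPM between the cultures.

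Hnf4g, a nuclear receptor of the HNF4 family, read 119, 117, 126 and 128 CPM in the CV libraries, 357, 369, 374 and 378 in ENR and 1285, 1360, 1522 and 1458 in EN. All libraries of one culture lay above all libraries of the next. The log2 change from CV to EN was 3.52 ± 0.05 (SE, edgeR adjusted p = 5.1e-17), which placed it at rank 193 of 9288 from the highest rise. From ENR to EN it was 1.93 ± 0.05 (edgeR adjusted p = 1.6e-14), and CV was lower than ENR by 1.59 on the log2 scale (edgeR adjusted p = 1.8e-12).

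Hnf4a, its paralogue, read 732, 705, 727 and 740 CPM in CV, 701, 704, 703 and 722 in ENR and 720, 695, 693 and 704 in EN. The 3 cultures overlapped. The log2 differences were -0.05 ± 0.03 for EN against CV and -0.01 ± 0.03 for EN against ENR (edgeR adjusted p = 0.15 and 0.78). Those signs turned to 0.82 and 0.94 on the deposited mRNA copy numbers, the authors' values scaled to spiked-in RNA. All these values are of 1 transcript, although 6 Hnf4a starts are annotated. The paper reports no change of the canonical Hnf4a transcript but a strong fall of an alternative isoform during enterocyte differentiation. Isoforms were not told apart here, so the values need not hold for the whole gene.

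**Figure D1:**
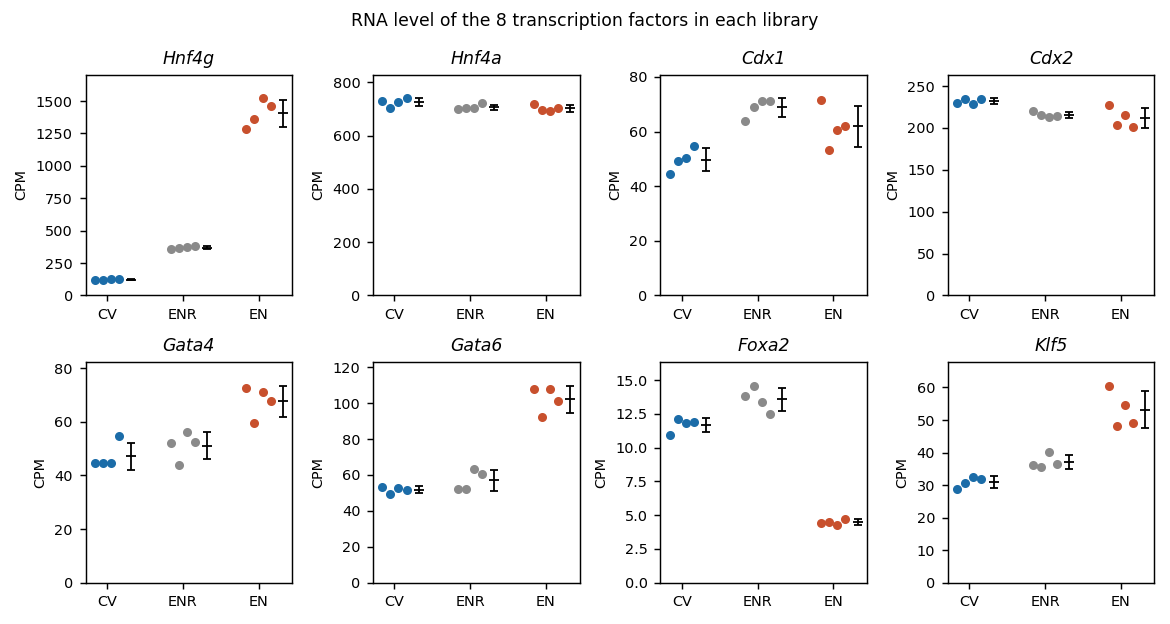
RNA level of each of the 8 transcription factors in CPM (vertical axis, starting at 0) in the 4 CV, 4 ENR and 4 EN libraries, each a point, with mean ± SD beside them. Hnf4g climbs from 117 to 128 CPM in CV to 1285 to 1522 in EN, Foxa2 drops to 4.28 to 4.75 CPM in EN, and Hnf4a stays between 693 and 740 CPM.

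Both caudal factors moved little. Cdx2, required for intestinal rather than gastric identity, read 230, 235, 229 and 235 CPM in CV, 220, 215, 213 and 214 in ENR and 227, 203, 216 and 201 in EN. The EN libraries lay below those of CV and overlapped with ENR. The log2 change from CV to EN was -0.13 ± 0.04 (edgeR adjusted p = 0.0067), a call lost under size factors of the relative log expression method (-0.07) and turned to 0.71 on deposited copies. Cdx1 read 44.6, 49.1, 50.4 and 54.8 CPM in CV, 64.0, 69.0, 71.1 and 71.2 in ENR and 71.7, 53.1, 60.6 and 62.0 in EN. It was lowest in CV, by 0.47 on the log2 scale against ENR (-0.47 ± 0.08, edgeR adjusted p = 0.00012), and its rise to EN of 0.32 ± 0.08 (edgeR adjusted p = 0.0022) became -0.01 on TPM and -0.09 with spike-in library sizes. Without EN replicate 1 that rise was 0.24 and missed the threshold.

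The GATA factors rose together in EN, Gata6 more than Gata4. Gata6 read 53.2, 49.3, 52.9 and 51.9 CPM in CV, 52.2, 52.0, 63.5 and 60.5 in ENR and 108, 92.1, 108 and 101 in EN, with EN above every other library. The log2 change was 0.98 ± 0.07 from CV (edgeR adjusted p = 2.9e-09) and 0.85 ± 0.07 from ENR (edgeR adjusted p = 2.1e-08). Gata4 read 44.5, 44.7, 44.7 and 54.7 CPM in CV, 52.0, 44.0, 56.3 and 52.4 in ENR and 72.6, 59.5, 71.0 and 67.8 in EN. Its libraries of EN also lay above the rest, by 0.53 ± 0.09 on the log2 scale against CV (edgeR adjusted p = 4.7e-05) and 0.41 ± 0.09 against ENR (edgeR adjusted p = 0.00055), although spike-in library sizes gave 0.10 and -0.09. With those sizes, Gata6 read 0.34 against ENR and was no longer called.

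Foxa2 was the one member that fell clearly. It read 10.9, 12.1, 11.8 and 11.9 CPM in CV, 13.8, 14.6, 13.4 and 12.5 in ENR and 4.42, 4.50, 4.28 and 4.75 in EN. EN lay below all other libraries, on 21 to 33 counts per library. The log2 change was -1.38 ± 0.11 against CV (edgeR adjusted p = 1.4e-08) and -1.59 ± 0.11 against ENR (edgeR adjusted p = 2.6e-09). CV and ENR did not overlap either, but their difference of -0.21 ± 0.10 missed the threshold (edgeR adjusted p = 0.073).

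Klf5 read 28.7, 30.6, 32.6 and 31.9 CPM in CV, 36.1, 35.5, 40.1 and 36.4 in ENR and 60.6, 48.2, 54.6 and 49.2 in EN. The cultures did not overlap and were ordered CV, ENR, EN. Its rise was 0.78 ± 0.08 on the log2 scale from CV (edgeR adjusted p = 1.3e-07) and 0.53 ± 0.08 from ENR (edgeR adjusted p = 1.2e-05), while spike-in library sizes gave 0.37 and 0.03. The step from ENR down to CV (-0.26 ± 0.08, edgeR adjusted p = 0.0090) lost its call when any 1 CV or ENR library was left out.

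Between EN and ENR, 5 of 8 members were called, beside 72.7% of all transcripts. Hnf4g, Gata4, Gata6 and Klf5 were higher in EN and Foxa2 lower, beside 35.5% and 37.2%, and 74.2% of all transcripts had no overlap. Between CV and ENR, 3 were called, Hnf4g, Cdx1 and Klf5, beside 60.0%, and all 3 were lower in CV, beside 29.8% lower and 30.2% higher, with 65.7% of all transcripts free of overlap. The comparisons share libraries, since each culture stands in 2 of them. The median log2 change of all transcripts from CV to EN was -0.08 in edgeR, -0.34 on TPM, -0.49 with spike-in library sizes and 0.62 on copies. From ENR to EN the same medians were -0.01, -0.14, -0.52 and 0.88. Set against the median of all transcripts, Hnf4g was higher in EN than in CV by 3.52 to 4.04 and Foxa2 stood at -1.30 to -1.08 with edgeR, TPM with a pseudocount of 1, spike-in sizes and copies.

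**Figure D2:**
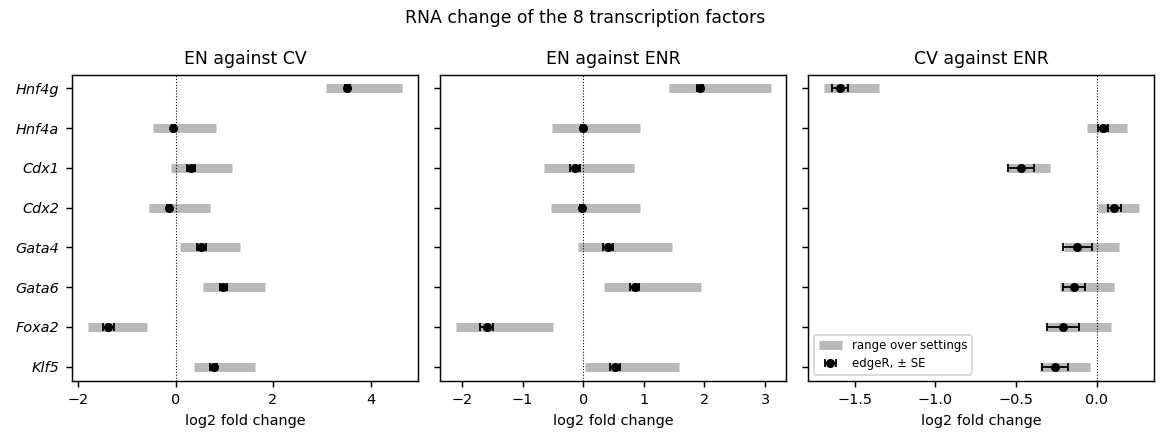
Log2 fold change of RNA (horizontal axis) for the 8 factors in EN against CV, EN against ENR and CV against ENR, with points for edgeR, black bars for ± SE and grey bars for the range over all settings tried. Hnf4g, Gata6, Klf5 and Foxa2 keep one side of 0 in both comparisons with EN, Gata4 crosses it against ENR, and the grey bars of Hnf4a, Cdx1 and Cdx2 cross it in both.

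Levels of different genes were compared per length, in TPM, a share of transcripts that allows for their length. In CV the order of mean TPM was Hnf4a (271 ± 7.36, SD, n = 4), Cdx2 (186 ± 3.98), Cdx1 (50.0 ± 4.57), Hnf4g (48.1 ± 2.18), Klf5 (31.5 ± 1.82), Gata6 (27.1 ± 0.992), Gata4 (23.0 ± 2.66) and Foxa2 (9.41 ± 0.447). The neighbours Cdx1 and Hnf4g overlapped, as did Gata6 and Gata4. In ENR, Hnf4g had moved above Cdx1 at 130 ± 3.37 TPM against 62.0 ± 3.23. In EN it headed the order with 444 ± 28.7 TPM, above Hnf4a with 211 ± 6.74, and Cdx1, Klf5 and Gata6 overlapped at 49.8 ± 6.91, 43.4 ± 5.20 and 42.9 ± 3.56 TPM. Hnf4g made up 7.44% of the summed TPM of the 8 factors in CV, 19.2% in ENR and 46.4% in EN.

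Ratios of paralogues within a library do not depend on how libraries are scaled to each other. In TPM, Hnf4g to Hnf4a stood at 0.171, 0.175, 0.182 and 0.182 in CV, at 0.536, 0.551, 0.560 and 0.551 in ENR and at 1.88, 2.06, 2.31 and 2.18 in EN. No 2 cultures overlapped, and the order of the measured Hnf4g and Hnf4a transcripts turned over in EN. The ratio was 11.8-fold higher in EN than in CV and 3.83-fold higher than in ENR (two-sided exact permutation test, n = 4 against 4, p = 0.0286, adjusted p = 0.0367 over 9 tests). A p of 0.0286 is the smallest that 4 against 4 libraries allow.

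Cdx1 to Cdx2 was lowest in CV, at 0.243 to 0.292, against 0.365 to 0.418 in ENR and 0.327 to 0.395 in EN. The rise from CV to EN was 1.36-fold (exact permutation p = 0.0286, adjusted p = 0.0367), whereas EN and ENR overlapped (exact permutation p = 0.171, adjusted p = 0.193). Gata4 to Gata6 was lowest in EN, at 0.604 to 0.629, against 0.781 to 0.984 in CV and 0.790 to 0.930 in ENR. It was 1.37-fold lower in EN than in CV (exact permutation p = 0.0286, adjusted p = 0.0367), and CV and ENR overlapped.

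**Figure D3:**
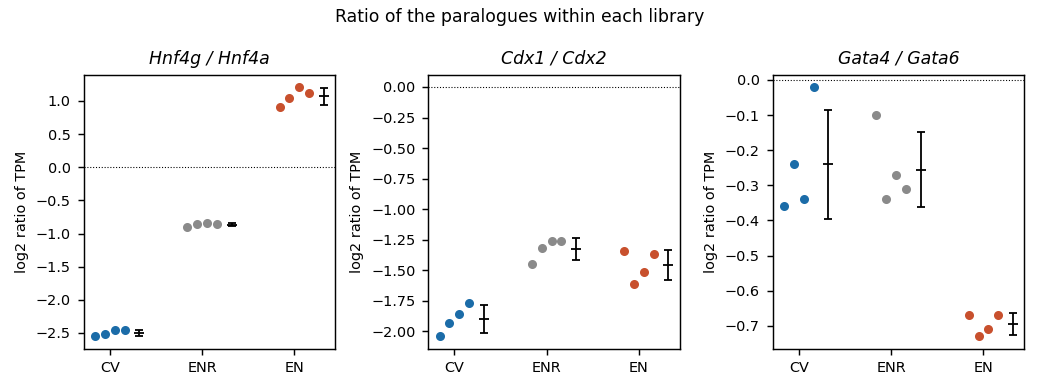
Log2 ratio of TPM of Hnf4g to Hnf4a, Cdx1 to Cdx2 and Gata4 to Gata6 in each library (points, 4 per culture) with mean ± SD. The HNF4 ratio passes 0 in EN alone, where it lies between 0.91 and 1.21, while the CDX and GATA ratios stay below 0.

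Each factor was then set beside the transcripts whose levels were most like its own over the 12 libraries. These correlations describe 3 cultures of 4 libraries and carry no test. For Hnf4g they were Bche (Pearson r = 0.9997), Cldn15 (0.9993) and Insr (0.9989), with Bche going from 113 CPM in CV to 386 in ENR and 1640 in EN. For Foxa2 they were Rnps1 (0.9974), Mcm2 (0.9969) and Tfdp1 (0.9967), and Mcm2, a subunit of the replicative helicase, went from 54.9 CPM in CV and 95.8 in ENR to 1.86 in EN. Gata6 was most like Ucp2 (0.9876), Mgat1 (0.9869) and Fam20a (0.9842), Klf5 like Arhgap27 (0.9826), Rab17 (0.9782) and Myrf (0.9766), and Gata4 like Lipe (0.9500), Kdm4b (0.9423) and Wwp2 (0.9394). Cdx1 was closest to Lemd2 (0.9382), Txnl4b (0.9294) and Ehmt2 (0.9280), and Cdx2 to Rnf113a2 (0.9226), 2610301B20Rik (0.9111) and Rce1 (0.9051). Hnf4a, whose level barely varied, had the weakest likeness, to Rtn4ip1 (0.8376), Recql5 (0.8346) and Prcc (0.8245).

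Genes that textbooks place downstream of the factors were described next. Of 14 HNF4 targets, 13 rose and 1 fell from CV to EN, with a median log2 change of 3.18, while over all transcripts 35.2% rose, 41.2% fell and the median was -0.08. Slc6a19, the brush border transporter of neutral amino acids, went from 9.13 ± 1.48 to 650 ± 52.6 CPM (log2 6.15 ± 0.10, edgeR adjusted p = 1.1e-16), and Pck1, of gluconeogenesis, from 0.588 ± 0.180, or 3 to 6 counts, to 89.4 ± 8.10 CPM. Ttr, the thyroxine carrier, fell from 13.8 ± 1.66 to 8.60 ± 0.988 CPM (log2 -0.68, edgeR adjusted p = 7.2e-05). Among 10 CDX targets, 8 rose and 1 fell. Muc2, the goblet cell mucin, went from 3.03 ± 0.392 to 739 ± 43.6 CPM and Sis, sucrase-isomaltase, from 1235 ± 85.2 to 27938 ± 1070, whereas Mep1a, a meprin protease, fell by 0.67 on the log2 scale. All 6 GATA targets tested rose, with a median of 3.14. Among them Lct, lactase, went from 11.6 ± 2.85 to 249 ± 6.78 CPM. All 5 KLF5 and proliferation targets fell, with a median of -4.11. Cdk1 dropped from 95.8 ± 7.87 to 3.57 ± 1.16 CPM and Ccnb1 from 87.7 ± 2.02 to 3.39 ± 0.606, both drivers of mitosis, while Klf5 itself rose. The target lists share members, and several are also enterocyte, goblet or stem cell markers, whose sums are given above.

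Of 22 other intestinal regulators measured, 15 rose, 6 fell and 1 was not called from CV to EN. Their median log2 change was 1.03, while over all transcripts 35.2% rose, 41.2% fell and the median was -0.08. Creb3l3 went from 122 ± 1.98 to 877 ± 33.0 CPM and Rxra, the partner of many nuclear receptors, from 46.5 ± 1.54 to 235 ± 9.63 CPM. Sox9, of crypt and Paneth cells, fell from 34.7 ± 3.25 to 3.98 ± 0.851 CPM, and Ascl2, of stem cells, from 5.85 ± 1.03 CPM to 0 to 3 counts per library. For 14 cofactors with 15 transcripts, 9 rose and 2 fell, with a median of 0.83. Crebbp, a histone acetyltransferase, rose from 17.7 ± 1.62 to 59.0 ± 3.24 CPM and the corepressor gene Ncor1 from 42.1 ± 4.43 to 104 ± 10.6, while Med14 fell from 75.5 ± 5.00 to 40.9 ± 3.68 and Smarca4, the ATPase of chromatin remodelling, from 124 ± 8.75 to 78.5 ± 8.12. Each of these 8 changes had an edgeR adjusted p of 2.5e-07 or less.

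Promoter sequence is shown for the factors whose start regions are described in what follows and that the RefSeq table of build GRCm38.p6 holds, namely Hnf4a with 2 promoters, Cdx2 with 1 and Foxa2 with 3. The Foxa2 promoter at chr2:148046970-148047219 lies outside the start regions, held no match and is not printed. The table held no entry for Hnf4g, Cdx1, Gata4, Gata6 or Klf5. Each line gives the 250 bases before a start, 5′ to 3′ on the gene's strand, and capitals mark matches on either strand. The letters searched were CAAAGTC for HNF4, AGATAA for factors of the GATA family, TTTATNG for CDX, TGTTTAC for FOXA, CCACCC for KLF and CTTTGAT for TCF, and no match overlapped another.
Hnf4a at chr2:163506607-163506856, plus strand: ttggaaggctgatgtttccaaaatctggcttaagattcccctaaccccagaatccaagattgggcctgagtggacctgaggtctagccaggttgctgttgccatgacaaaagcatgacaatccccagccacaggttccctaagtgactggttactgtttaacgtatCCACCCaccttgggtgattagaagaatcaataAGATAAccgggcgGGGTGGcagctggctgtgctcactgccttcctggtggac
Hnf4a at chr2:163546905-163547154, plus strand: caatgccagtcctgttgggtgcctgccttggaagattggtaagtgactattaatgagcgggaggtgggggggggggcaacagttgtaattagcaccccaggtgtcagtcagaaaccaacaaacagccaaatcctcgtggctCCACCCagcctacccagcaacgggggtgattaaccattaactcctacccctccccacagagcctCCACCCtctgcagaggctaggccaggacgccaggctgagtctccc
Cdx2 at chr5:147307250-147307499, minus strand: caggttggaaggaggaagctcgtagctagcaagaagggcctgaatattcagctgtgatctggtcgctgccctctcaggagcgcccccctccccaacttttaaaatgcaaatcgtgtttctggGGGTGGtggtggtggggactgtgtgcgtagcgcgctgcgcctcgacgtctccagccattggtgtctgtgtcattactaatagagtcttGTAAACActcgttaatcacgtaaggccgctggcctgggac
Foxa2 at chr2:148045465-148045714, minus strand: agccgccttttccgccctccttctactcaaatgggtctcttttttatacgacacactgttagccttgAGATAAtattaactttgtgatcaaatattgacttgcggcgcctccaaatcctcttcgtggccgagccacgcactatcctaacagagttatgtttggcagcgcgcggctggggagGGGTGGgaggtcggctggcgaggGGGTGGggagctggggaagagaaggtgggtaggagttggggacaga
Foxa2 at chr2:148045949-148046198, minus strand: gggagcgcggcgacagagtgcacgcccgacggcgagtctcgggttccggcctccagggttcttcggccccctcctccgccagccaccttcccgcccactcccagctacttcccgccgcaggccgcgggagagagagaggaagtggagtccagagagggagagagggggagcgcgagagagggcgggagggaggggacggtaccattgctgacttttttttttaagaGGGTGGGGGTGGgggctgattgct

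The upstream Hnf4a promoter held 1 GATA and 2 KLF matches, the downstream one 2 KLF matches, the Cdx2 promoter 1 FOXA and 1 KLF match, the first Foxa2 promoter 1 GATA and 2 KLF matches and the second 2 KLF matches. Of 32817 promoters of the same length in the table, 9.99% held the GATA letters, 28.1% KLF, 3.16% FOXA, 3.84% HNF4, 9.81% CDX and 3.21% TCF. Each sequence matched its chromosome in mm9, the build of the chromatin table, at a single place. The 5 sequences printed lay in the start regions described next, by 230 to 250 of their 250 bases.

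Chromatin at the 8 genes was compared next, first at their start sites. EN gained H3K27ac, a mark of active promoters and enhancers, beside the downstream of the 2 annotated Hnf4g starts and lost it at the Foxa2 start. Accessibility fell at the Foxa2 start in EN and was lowest at the Cdx2 and Gata6 starts in CV. No called change was found at the starts of Hnf4a, Cdx1, Gata4 or Klf5 in ATAC or any mark. Tests were limma's, on log2(score + 1) over all regions, at an adjusted p under 0.01. Every H3K27ac call named below was lost without a trend in limma (adjusted p = 0.035 to 0.25) and with a replicate block, and ATAC calls held without a trend except where said.

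Hnf4g starts at 3508030 and at 3634150 of mm9 chromosome 3, 126.1 kb apart on the plus strand. Which of them the measured transcript uses is not settled here. At the upstream start, region chr3:3507704-3509062, ATAC scores were 57, 52, 65 and 62 in CV, 52, 51, 71 and 56 in ENR and 45, 34, 53 and 60 in EN, and H3K27ac scores were 37, 66 and 95, 86, 50 and 55, and 78, 87 and 79. The cultures overlapped in both. In the region beside the downstream start, chr3:3634388-3634884, H3K27ac read 2, 8 and 17 in CV, 20, 13 and 21 in ENR and 105, 49 and 101 in EN. EN lay above all others, with a log2 change from CV of 3.37 (limma adjusted p = 5.8e-05), and from ENR of 2.13 (limma adjusted p = 0.028). H3K4me3, a promoter mark, read 7, 10 and 10, 9, 11 and 9, and 12, 41 and 46 there, a difference that missed the threshold (limma adjusted p = 0.10 against CV).

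The region over the downstream start, chr3:3633741-3634369, held ATAC scores of 83, 66, 73 and 87 in CV, 48, 47, 61 and 50 in ENR and 76, 57, 78 and 100 in EN, so it was open in all cultures. A further region about 1 kb into the transcript, chr3:3635126-3635237, gained H3K27ac from 3, 2 and 0 in CV to 11, 16 and 19 in EN (limma adjusted p = 0.0051), a call that was lost without CV replicate 4 or 5, ENR replicate 2 or 4, or any EN library. Of the H3K27ac scores in the start regions of Hnf4g, the downstream ones took 17.5 to 33.9% in CV, 27.5 to 36.0% in ENR and 45.6 to 69.2% in EN (n = 3 each). For H3K4me3 the same shares were 20.4 to 24.1%, 23.0 to 27.9% and 39.2 to 64.9%. With 3 libraries against 3, an exact permutation test cannot go below p = 0.10, so these shares were not tested.

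At the Foxa2 start, region chr2:147870499-147872508, H3K27ac read 137, 117 and 82 in CV, 94, 78 and 53 in ENR and 33, 27 and 23 in EN. EN was below both, and CV overlapped with ENR. The log2 change from CV was -1.96 (limma adjusted p = 0.00011) and from ENR -1.38 (limma adjusted p = 0.019). ATAC went the same way, from 123, 123, 99 and 114 in CV and 124, 106, 130 and 119 in ENR to 77, 60, 69 and 67 in EN (log2 -0.74 and -0.80, limma adjusted p = 5.9e-05 and 6.3e-05). H3K4me3 was 84, 96 and 81 in CV, 93, 89 and 78 in ENR and 57, 61 and 64 in EN, without overlap but past the threshold in neither comparison (limma adjusted p = 0.037 and 0.035). RNA of Foxa2 was lowest in the same culture.

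The Cdx2 start, region chr5:148118271-148119147, had ATAC scores of 60, 78, 68 and 86 in CV, 175, 168, 183 and 182 in ENR and 113, 120, 116 and 143 in EN. The 3 cultures were fully apart, with ENR highest. CV stood at -1.28 on the log2 scale against ENR (limma adjusted p = 1.8e-06) and EN higher than CV by 0.75 (limma adjusted p = 6.6e-05), while Cdx2 RNA in CPM was highest in CV. EN stood at -0.53 against ENR (limma adjusted p = 0.0029), a call lost without ENR replicate 3 or 4 and without a trend. H3K27ac there read 113, 96 and 115, 110, 125 and 127, and 163, 104 and 135, with overlap. The comparison of CV with ENR in chromatin was added after the other values had been seen.

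At the Gata6 start, ATAC read 45, 54, 50 and 64 in CV, 97, 94, 85 and 94 in ENR and 72, 78, 73 and 98 in EN. CV lay below both, by 0.80 on the log2 scale against ENR (-0.80, limma adjusted p = 0.0005), and EN above CV by 0.58 (limma adjusted p = 0.0020, lost without a trend at 0.020). H3K4me3 read 24, 20 and 23, 28, 23 and 26, and 40, 45 and 43, highest in EN (log2 0.91 against CV, limma adjusted p = 0.0076), although leaving out any 1 library other than EN replicate 1, or a replicate block, took the call away. An adjoining region just inside the gene also opened, from 3, 5, 7 and 5 in CV to 10, 12, 14 and 14 in EN (log2 1.20, limma adjusted p = 0.0012). Klf5 had the most open start of the 8, with ATAC scores of 207, 186, 191 and 196 in CV, 226, 237, 225 and 237 in ENR and 143, 184, 199 and 250 in EN, and EN overlapped with both. The Cdx1 start read 13, 13, 12 and 9 in CV, 15, 18, 10 and 14 in ENR and 25, 21, 13 and 19 in EN, with overlap (limma adjusted p = 0.033 for EN against CV). H3K4me3 at the Klf5 start, at 26, 29 and 25 in CV, 25, 26 and 25 in ENR and 43, 37 and 42 in EN missed the threshold (limma adjusted p = 0.031 and 0.020). At the most open of the Gata4 start regions, chr14:63864026-63864497, ATAC was 48, 53, 39 and 54 in CV, 58, 77, 66 and 66 in ENR and 49, 74, 60 and 56 in EN. At the upstream Hnf4a start, chr2:163332125-163333837, it was 78, 71, 67 and 86, 83, 79, 80 and 90, and 65, 82, 59 and 95. EN overlapped with CV at both.

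**Figure D4:**
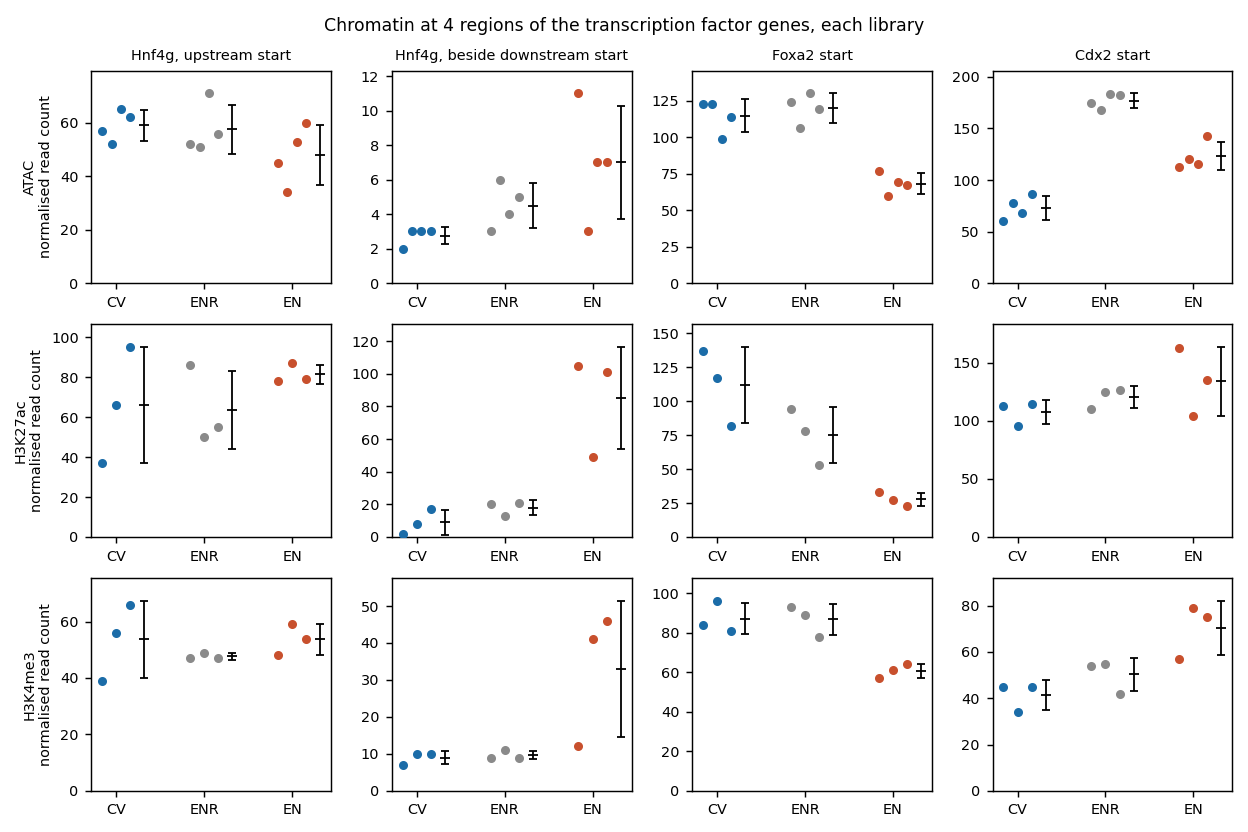
Normalized read counts (vertical axes, starting at 0) for ATAC (4 libraries per culture), H3K27ac and H3K4me3 (3 per culture) at 4 regions, each library a point, with mean ± SD beside them. EN has H3K27ac of 49 to 105 beside the downstream Hnf4g start against 2 to 17 in CV, 23 to 33 at the Foxa2 start against 82 to 137, and ATAC at the Cdx2 start of 113 to 143 against 60 to 86.

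Across all 233 regions closest to the factors, 55 were called in ATAC from CV to EN, 32 higher and 23 lower. That is 23.6% beside 24.4% of all 94166 regions tested, of which 14.3% were higher and 10.2% lower. From ENR to EN, 38 were called, 12 higher and 26 lower, or 16.3% beside 14.0% of all regions (6.71% higher, 7.31% lower). Between CV and ENR 20 were called, 6 higher and 14 lower in CV, or 8.58% beside 7.93% (2.41% higher, 5.52% lower). The members differed. Near Foxa2, 12 of 36 regions fell and 2 rose from ENR to EN, with a median log2 change of -0.63 beside -0.01 over all regions. Near Cdx2, 5 of 11 fell and none rose. Near Gata6, 11 of 38 rose and 4 fell from CV to EN, with a median of 0.48 beside 0.05. Near Hnf4g, the member whose RNA changed most, 4 of 34 rose and 1 fell. Regions near one gene share a locus and are not independent, and the closest start need not be the gene a region acts on.

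The largest called ATAC changes of each gene from CV to EN lay away from its starts except for the rise at Cdx2. Near Hnf4a, chr2:163366942-163367834, 4.6 kb from a start, had ATAC scores of 13, 12, 9 and 12 in CV, 29, 49, 34 and 41 in ENR and 51, 65, 47 and 70 in EN. EN and CV were far apart (log2 2.24, limma adjusted p = 1.0e-07), and H3K4me3 rose there from 10, 11 and 14 to 31, 47 and 55 (log2 1.81, limma adjusted p = 0.0039, lost in 6 of the 9 fits without 1 library). Its neighbour chr2:163366410-163366724 had H3K4me3 of 4, 6 and 6 in CV, 10, 10 and 9 in ENR and 30, 27 and 23 in EN (log2 2.14 from CV, limma adjusted p = 0.0010). With a replicate block both H3K4me3 differences missed the threshold (limma adjusted p = 0.062 and 0.030). The largest ATAC rise near Hnf4a was at chr2:163387351-163387627, from 1, 3, 5 and 2 to 20, 22, 18 and 23 (log2 2.64, limma adjusted p = 4.2e-06). The largest fall, at chr2:163360429-163360952, was from 48, 48, 44 and 44 to 35, 22, 18 and 30 (log2 -0.83, limma adjusted p = 0.0012). These gains and losses lay within one locus, while the CPM of the measured Hnf4a transcript overlapped between the cultures. Regions were tied to protein-coding starts only. The paper describes an antisense non-coding transcript in this locus, Hnf4aos, whose promoter has changing H3K4me3 and an Hnf4g binding site. Whether the regions above belong to it was not tested.

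Near Gata4, chr14:63954309-63954669, 64 kb upstream, opened from 6, 9, 11 and 8 in CV to 35, 40, 27 and 32 in ENR and 47, 68, 48 and 63 in EN (log2 2.61 from CV to EN, limma adjusted p = 2.7e-08). A nearer region, chr14:63905965-63907102, gained H3K27ac from 56, 70 and 106 in CV and 89, 41 and 76 in ENR to 152, 171 and 181 in EN (log2 1.16 and 1.35, limma adjusted p = 0.0096 and 0.0088), while its ATAC of 48, 61, 42 and 55 against 56, 55, 53 and 82 overlapped. Both H3K27ac calls were lost when EN replicate 2, 3 or 4 was left out, in most fits without another library, and under quantile normalization. Near Gata6, a region 265 kb downstream gained ATAC, from 43, 47, 50 and 50 in CV to 98, 104, 95 and 145 in EN (log2 1.18, limma adjusted p = 2.5e-06), and H3K27ac, from 24, 20 and 20 to 109, 71 and 71 (log2 1.90, limma adjusted p = 0.00081). The H3K27ac call there was lost without EN replicate 2 or 3. The largest ATAC rise near Gata6 was in a region 153 kb downstream, from 7, 10, 8 and 2 to 22, 37, 20 and 30 (log2 1.98, limma adjusted p = 0.00014). Near Hnf4g it was at chr3:3662165-3662368, from 2, 2, 2 and 2 to 7, 9, 12 and 14 (log2 1.90, limma adjusted p = 5.5e-05). Near Klf5 it was at chr14:99872974-99873126, from 0, 0, 2 and 0 to 4, 7, 4 and 5 (log2 2.16, limma adjusted p = 0.00044). For the Hnf4g and Klf5 rises, the fit without a trend is not given here.

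Each of the 8 factors, Hnf4a above among them, had a called ATAC loss from CV to EN away from its starts. With 8 to 57 regions per factor, and 10.2% of all regions called lower, having such a loss says little by itself. The share of all genes with a loss was not computed. At chr2:147543165-147543806, 328 kb downstream of Foxa2, ATAC fell from 61, 67, 78 and 74 in CV and 63, 48, 67 and 53 in ENR to 16, 16, 12 and 10 in EN (log2 -2.31 and -2.03, limma adjusted p = 2.0e-08 and 3.4e-07). A region at chr2:147810852-147811225 lost H3K27ac from 21, 16 and 13 in CV to 1, 3 and 1 in EN (log2 -2.78, limma adjusted p = 0.0028, lost without EN replicate 2 or 4 or any CV library). One region closest to Foxa2, chr2:147741863-147742149, opened instead, from 6, 3, 7 and 4 to 21, 17, 23 and 22 (log2 1.90, limma adjusted p = 3.9e-05). Near Cdx2, chr5:148103873-148104368, 15 kb downstream, closed from 24, 24, 23 and 25 in CV and 32, 40, 35 and 44 in ENR to 5, 6, 6 and 11 in EN (log2 -1.70 and -2.32, limma adjusted p = 5.6e-06 and 7.2e-07). A region 3.4 kb upstream of Cdx1 closed stepwise, from 22, 20, 24 and 21 in CV over 13, 12, 9 and 8 in ENR to 5, 7, 5 and 7 in EN (log2 -1.71 from CV to EN, limma adjusted p = 7.8e-06).

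The GATA genes also had losses. Near Gata4, chr14:63927734-63928244, 37 kb upstream, fell from 44, 55, 44 and 50 in CV and 47, 45, 39 and 43 in ENR to 23, 20, 27 and 34 in EN (log2 -0.89 and -0.74, limma adjusted p = 0.00033 and 0.0026), the call against ENR being lost without a trend and without ENR replicate 1 or 2. A region 12 kb upstream of Gata6 went from 2, 4, 2 and 5 in CV to 0 in each EN library (limma adjusted p = 0.0003). Near Klf5, chr14:100031778-100031936 went from 5, 5, 7 and 5 to 0, 0, 1 and 1 (limma adjusted p = 0.00015), and near Hnf4g, chr3:3353065-3353172 from 2, 3, 1 and 1 to 0 (limma adjusted p = 0.0061, lost without CV replicate 1 or 2 or EN replicate 2, 3 or 4). These last 3 rest on scores of 7 or less.

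The Cdx2 region that closed, printed here, carries the largest called loss of accessibility from CV to EN among regions closest to Cdx2. The line gives the 300 bases around its centre on the plus strand of mm9, with the same motifs in capitals.
Cdx2 distal region at chr5:148103971-148104270: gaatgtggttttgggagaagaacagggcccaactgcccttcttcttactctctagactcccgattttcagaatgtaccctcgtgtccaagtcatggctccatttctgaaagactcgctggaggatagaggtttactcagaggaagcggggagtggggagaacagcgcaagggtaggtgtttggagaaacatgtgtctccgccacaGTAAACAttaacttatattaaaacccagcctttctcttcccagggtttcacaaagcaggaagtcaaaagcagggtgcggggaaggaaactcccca

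It held 1 FOXA match and none of the other motifs. Of 94334 regions taken at the same length, 5.30% held the FOXA letters.

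**Figure D5:**
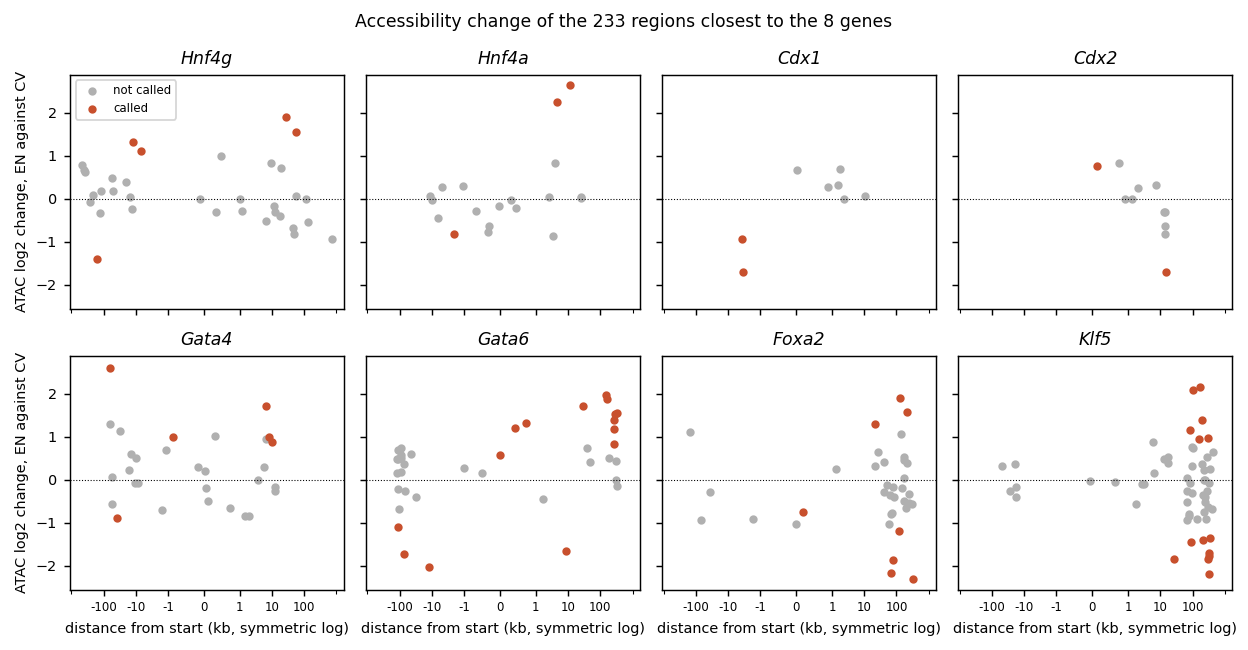
Log2 change of ATAC from CV to EN (vertical axis) for the 233 regions closest to a start of the 8 genes, against distance from that start in kb on a symmetric log axis, with positive values downstream. Regions past an adjusted p of 0.01 are in red and the largest changes lie away from the starts, such as 2.64 near Hnf4a, 2.61 near Gata4 and -2.31 near Foxa2.

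In the histone marks few regions of the factors were called, in tests that found 53.5% (H3K27ac), 23.5% (H3K4me3) and 34.5% (H3K27me3) of 4-fold changes in simulated data. The changed regions there lay above the median score, and all regions had the same relative spread. For regions with lower scores these shares were not measured. H3K27ac had 6 of 233 called from CV to EN, 2.58% beside 3.22% of all regions, with 4 higher and 2 lower beside 2.68% and 0.538%, and 1 from ENR to EN, 0.429% beside 0.549%. Near Foxa2 the median H3K27ac change over 36 regions from CV to EN was -1.08 on the log2 scale, beside -0.14 over all regions, with 2 called lower and 12 at an unadjusted p under 0.05. No H3K27ac region was called between CV and ENR by limma, beside 0.626% of all, with 32 at an unadjusted p under 0.05. H3K4me3 had 5 of 209 called from CV to EN (2.39% beside 2.17%) and 5 from ENR to EN (2.39% beside 2.08%), all higher in EN beside 1.52% and 1.99% of all regions, but in 1 and 4 of these no library scored above 3, so their values cannot be told from a few reads. Between CV and ENR no H3K4me3 region was called by limma, beside 0.00% of all, with 34 at an unadjusted p under 0.05. H3K27me3, the mark of Polycomb repression, had none of 233 called by limma in EN against CV or ENR, beside 0.163% and 0.00% of all regions. At an unadjusted p under 0.05 there were 16 and 26 regions, and every other setting of limma tried also called 0.

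Occupancy by Hnf4g itself was read at the start regions of the 8 genes. With 1 library per culture there is no test, and the intervals given are exact Poisson 95% intervals, which cover counting error only. The libraries held 84340 reads within regions in CV, 352600 in ENR and 1816497 in EN, so that 3 reads correspond to 35.6, 8.51 and 1.65 RPM (reads per 1000000 reads in regions). Summed over the 23 start regions of the factors, the libraries had 19, 190 and 1530 reads. These are 225 (136 to 352), 539 (465 to 621) and 842 (801 to 886) RPM. The EN library stood 1.56 times above ENR (1.34 to 1.83), but start regions as a whole also took more of its reads, 54.2% against 37.4% in ENR and 35.1% in CV. Relative to reads in start regions alone, EN stood 1.08 times above ENR.

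The factors differed in occupancy. In the EN library the Gata4 start region at chr14:63864026-63864497 held 282 reads, more than 97.7% of the 15648 start regions of all genes. The other Gata4 start regions held 3, 0, 10 and 5 reads. The Cdx1 start held 278, more than 97.6%. The median start region had 37 reads. Cdx2 held 155 reads, more than 89.9%, while Klf5 held 120 and Gata6 104. In the ENR library the same Gata4 region had 41 reads, or 116 (83.4 to 158) RPM, against 155 (138 to 174) in EN. The Cdx1 start read 68.1 (43.6 to 101) RPM in ENR and 153 (136 to 172) in EN, and the Cdx2 start 31.2 (15.6 to 55.8) and 85.3 (72.4 to 99.9). The ratios of the EN to the ENR library were 1.34 for Gata4, 2.25 for Cdx1 and 2.74 for Cdx2, and relative to reads in start regions alone 0.92, 1.55 and 1.88. They compare 2 libraries and not the cultures. Hnf4g showed little occupancy at its own starts, with 7 reads in ENR and 5 in EN upstream, and none in ENR against 22 in EN over the downstream start, more than 37.2% of start regions. Scaled to depth, the upstream start read 19.9 (7.98 to 40.9) RPM in ENR and 2.75 (0.894 to 6.42) in EN. The downstream one read 0 (0 to 10.5) and 12.1 (7.59 to 18.3) RPM. Hnf4a held 35 reads in EN at its upstream start and 28 at the downstream one, and the Foxa2 start 54 in EN and 14 in ENR, which is 29.7 (22.3 to 38.8) and 39.7 (21.7 to 66.6) RPM. In the CV library, the shallowest, no member's start region exceeded 7 reads. Those 7 reads, in a start region of Cdx1, are 83.0 (33.4 to 171) RPM. The same region had 31.2 (15.6 to 55.8) RPM in ENR and 101 (86.7 to 116) in EN. For this region the CV interval overlapped with both others, so its low count does not show that occupancy was lower in CV. Summed over the 23 start regions, the CV library read lower, at 225 (136 to 352) RPM on 19 reads. ENR read 539 (465 to 621) RPM there and EN 842 (801 to 886). With 1 library per culture, a difference between the cultures was not tested.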

How the data were processed

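RNA-seq reads had been quantified by the authors with kallisto (0.43.0 per the submitters' processing notes) on mouse RefSeq transcripts. The authors deposited expected counts per transcript, TPM, and mRNA copies scaled to spike-ins, an absolute measure that serves here as a further setting. Chromatin values other than Hnf4g are scores, which the authors normalized by a method not given in the sources used here, rounded to whole numbers and deposited per region, from reads aligned to mm9 with BWA and peaks called with MACS2. H3K27me3 was counted over regions extended to 1000 bases. Hnf4g occupancy was deposited as read counts, not normalized.

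The 8 genes, gene lists and regions were chosen with earlier results of these data known. Rounded counts of 9288 transcripts above 0 in at least 4 libraries were tested with edgeR 4.0.16 (TMM, quasi-likelihood, R 4.3.3), and scores above 0 in at least 3 libraries with limma 3.58.1 with a trend on log2(score + 1), all cultures in 1 fit, called at an adjusted p of 0.01. RNA depth was 5630951 to 8859744 counts per library. Closest starts are those of protein-coding transcripts in the GENCODE annotation of mm9. Genes named beside the 8 are the 3 transcripts most correlated with each (log2 CPM, prior count 2, mean of at least 5 CPM) and, from each list, the 2 largest called rises and falls from CV to EN. Named regions are those within 500 bases of a start and each gene's largest called ATAC rise and fall. Regions called in a histone mark were added after their values were seen. Tested on simulated data with 200 changed features in EN against CV, edgeR found 88.5% of 2-fold changes over 9273 transcripts with 2 false calls, and limma found 86.5% (ATAC), 53.5% (H3K27ac), 23.5% (H3K4me3) and 34.5% (H3K27me3) of 4-fold changes over 94166, 94215, 77827 and 94466 regions with 0. For limma the changed regions were drawn from those above the median score, with the same relative spread for all regions. DESeq2 1.42.0, other scalings, filters, thresholds and leaving out each library were tried as alternatives. Exact permutation tests used scipy 1.17.1. RNA of Hnf4g knockout organoids and 10 further histone libraries were not analysed here.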

Additional observations from a re-analysis of the deposited data

Results flagged for a closer look

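A single library stood apart from the other 3 of its culture by Dixon's 95% criterion in 22 of 165 groups of 4 values tested, where chance alone gives about 1 in 20. Among RNA levels these were Hnf4a in ENR, with replicate 4 at 722 CPM (ratio of gap to range 0.852), and Gata4 in CV, with replicate 4 at 54.7 CPM (0.976). Among ATAC scores whose remaining 3 values were not all equal they were the region 3812 bases downstream of an Hnf4a start in ENR, with replicate 1 at 5 (0.833), a region 892 bases inside Cdx1 in CV, with replicate 4 at 24 (0.900), the Cdx2 region 14726 bases downstream in EN, with replicate 4 at 11 (0.833), and the Gata4 region 16 kb upstream in EN, with replicate 4 at 82 (0.897). In the other 16 the ratio was 1.00 because the remaining 3 scores were equal whole numbers. They lay near Hnf4g (5), Hnf4a (5), Klf5 (3), Gata4 (2) and Gata6 (1), and the scores that differed ranged from 0 to 15.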

How the results depend on the processing

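On spike-in library sizes 4 members were called from CV to EN and 1 between CV and ENR, where the deposited copies also called 1. Of all 9288 transcripts, spike-in sizes called 5765 and 2636, beside 7096 and 5569 in the main fit. Copies called 1870 between CV and ENR. Fewer calls were thus made over all transcripts too. Where the value was called in edgeR or in the alternative, signs turned in 9 cases: Cdx1 from CV to EN (-0.09 with spike-in sizes, -0.01 on TPM with a pseudocount of 1 or 5), Gata4 from ENR to EN (-0.09 with spike-in sizes), and on copies Hnf4a (0.82 and 0.94) and Cdx2 (0.71 and 0.94) in both comparisons with EN and Cdx1 from ENR to EN (0.84). Uncalled differences also crossed 0, between CV and ENR for Hnf4a (-0.06 to 0.19), Gata4 (-0.20 to 0.14), Gata6 (-0.23 to 0.11) and Foxa2 (-0.31 to 0.09). At an adjusted p under 0.05, 68 ATAC regions were called from ENR to EN, 12 and 5 in H3K27ac and 10 and 15 in H3K4me3 (against CV and ENR). At the thresholds of the study the counts were 8 and 2 in ATAC, 3 and 0 in H3K27ac and 0 and 0 in H3K4me3. Without a trend, H3K27ac had 0 and 0 and H3K4me3 3 against CV. Against ENR, quantile normalization left 0 in both marks, a pseudocount of 5 gave 2 in H3K27ac, and regions within the gene or 50 kb gave 23 in ATAC and 3 in H3K4me3. Hnf4g occupancy in EN relative to ENR went from 1.56 to 1.08 over reads in start regions. Leaving out 1 library gave 6 to 7, 5 and 2 to 3 members in RNA, 46 to 58 and 28 to 41 regions in ATAC, 3 to 5 and 0 to 2 in H3K27ac and 1 to 7 and 0 to 10 in H3K4me3. Log2 differences of ratios then ranged from 3.52 to 3.62, 1.89 to 1.99 and -1.64 to -1.61 for Hnf4g to Hnf4a, from 0.40 to 0.50, -0.18 to -0.08 and -0.62 to -0.53 for Cdx1 to Cdx2, and from -0.49 to -0.38, -0.47 to -0.39 and -0.06 to 0.07 for Gata4 to Gata6. With 3 libraries against 4 the exact test cannot pass after adjustment, so these say nothing of stability of the call. With a replicate block, 7, 5 and 2 members, 55 and 47 ATAC regions and 0 regions in each mark were called. The numbers were not taken to pair the samples: the labels name no shared source, not every pair passed r of 0.1 (8 of 12 did in ATAC, 2 of 12 in RNA), and same-numbered libraries deviated together with r of -0.0801 to 0.111 in RNA, 0.0695 to 0.46 in ATAC, -0.0518 to 0.0357 in H3K27ac, -0.0813 to 0.131 in H3K4me3 and -0.043 to 0.0199 in H3K27me3. In ATAC 9 of 12 libraries correlated best with their own number, in RNA 4 of 12. The ATAC scores may thus share an effect of the number, which the main fit leaves in. H3K27me3 counts stayed at 0 in every setting. Apart from those on spike-in sizes and copies, the counts of this section are given without the share over all features. They are not read as results about the members. The causes were not tested.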
